A study of Mus musculus with 3 samples.

Results

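The genes of the cytosolic ribosomal proteins were followed in single cells of mouse small intestinal organoids. They were taken as every symbol that starts with Rpl or Rps and a digit, with Rplp, or that reads Rpsa, without the symbols marked -ps and without the Rps6k kinases, which gave 88 of 23271 genes. Of these 88, 77 are core ribosomal proteins and 11 are paralogs, copies or proteins of another kind that carry the prefix, such as Rps19bp1, a binding partner of Rps19. RNA was measured with Seq-Well, which captures cells in an array of wells and counts the 3′ ends of their mRNAs as unique molecular identifiers (UMIs). All cultures came from 1 donor of the C57BL/6 strain and from 1 stem cell-enriched culture, kept in ENR+CV, that is, ENR (EGF, Noggin and R-spondin 1) with the GSK3 inhibitor CHIR99021 and the histone deacetylase inhibitor valproic acid. The ENR+CV library held this precursor state, the ENR library cells passaged to ENR alone (conventional organoids), and the ENR+CD library cells passaged to ENR with CHIR99021 and the gamma-secretase inhibitor DAPT, in which Paneth cells (PCs) are enriched. Each condition is 1 library, so conditions could not be tested against each other, condition, array and library cannot be told apart, and the intervals given cover counting error only.

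A ribosome is built from a small (40S) and a large (60S) subunit, and each of its proteins is needed in about the same number of copies. The mRNAs of these proteins are short, abundant and share a start of pyrimidines, the 5′ terminal oligopyrimidine (TOP) motif, through which the mTOR pathway controls their translation. In the intestinal crypt, proliferating progenitors are known for active ribosome production, whereas PCs are postmitotic cells that devote much of their mRNA to secreted antimicrobial peptides such as the α-defensins (Defa genes).

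After cells with fewer than 400 genes or with 8000 or more UMIs were left out, 2545 ENR, 2383 ENR+CD and 985 ENR+CV cells remained, with medians of 1553, 1543 and 2499 UMIs. The members held 593050, 378285 and 372059 UMIs in them. The 7 epithelial markers, led by Epcam, summed to between 4432 and 4872 CPM (UMIs per 1000000 UMIs of the library) in the 3 libraries, against 36.4 to 42.8 for 8 immune markers and 12.2 to 22.0 for 10 markers of stroma and endothelium. The PC markers took 4.02% of ENR, 15.3% of ENR+CD and 0.630% of ENR+CV UMIs. The tables of single libraries attached to the ENR+CD and ENR+CV samples hold each other's cells, so the cell names of the merged table, which carry the library names of the labels, were followed, and every statement on ENR+CD or ENR+CV rests on those names. Between 3 and 7 cell barcodes were shared by a pair of libraries, and doublets were not removed.

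Of the 88 members, 87 have a place in the mouse annotation (GRCm38), on 19 chromosomes with at most 14 on 1 of them. RefSeq start sites (GRCm38.p6) were at hand for 65. The windows below, 12 bases to each side of the start, show the members whose levels in the ENR+CV library lay farthest above (Rpl41, Rps27, Rpl37a, Rps28) and among the farthest below ENR (Rpl10, Rpl12, Rpl28, Rps6). Capitals mark an unbroken run of at least 5 C or T that holds the start.
Rpl41 (chr10:128549157-128549180, minus strand): acgggccggctcggaagtgacgac
Rps27 (chr3:90213637-90213660, minus strand): tccgctttcgCTCCTTTCCggcgg
Rpl37a (chr1:72711248-72711271, plus strand): cgctcgccggtctaaaaccgcgca
Rps28 (chr17:33824551-33824574, minus strand): accgcgtgcggtctcgcgagagcg
Rpl10 (chrX:74270804-74270827, plus strand): gttacagtggaagataggccgcct
Rpl12 (chr2:32961700-32961723, plus strand): ggagcaggatccgtcttttcggct
Rpl28 (chr7:4792953-4792976, plus strand): cctctcgtgTCTCTCTTTCCgtct
Rps6 (chr4:86857356-86857379, minus strand): cggaagtcgggCCTCTTTTTCgtg
Runs occur in both sets. Over all members with a start, 20 of 65 (30.8%) began in such a run, against 11.8% of the 27025 genes in the promoter table, and 33.8% held the letters CTTTCC on either strand within 50 bases of the start, against 10.3%. A match is only a description of the annotated start, which can lie some bases from the start used in these cells.

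The members took a smaller part of the mRNA in ENR+CD than in ENR or ENR+CV. Per cell they made up 11.8% ± 3.20 of UMIs in ENR (SD over cells, n = 2545), 8.40% ± 2.58 in ENR+CD (n = 2383) and 12.04% ± 4.02 in ENR+CV (n = 985). The ratio of these means was 0.714 for ENR+CD over ENR, 1.43 for ENR+CV over ENR+CD and 1.02 for ENR+CV over ENR. Since Defa genes alone took 10.6% of UMIs in ENR+CD and mitochondrially encoded (mt-) genes 16.5% in ENR, the shares were also computed outside both groups. They were then 14.6% ± 3.08, 10.3% ± 2.61 and 12.6% ± 3.96 (SD over the same cells). The ENR+CD value remained the lowest, at 0.711 of ENR, whereas ENR+CV moved from about the level of ENR to 0.869 of it. The order of ENR and ENR+CV therefore depends on the denominator and on the cells, and with all UMIs it also turned to 0.981 in cells with under 10% mt- UMIs. Predicted α-defensin genes with other symbols stayed in the denominator outside Defa and mt-. Leaving them out too, a choice made after seeing the data, gave 0.748 for ENR+CD over ENR and 0.859 for ENR+CV over ENR.

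**Figure D1:**
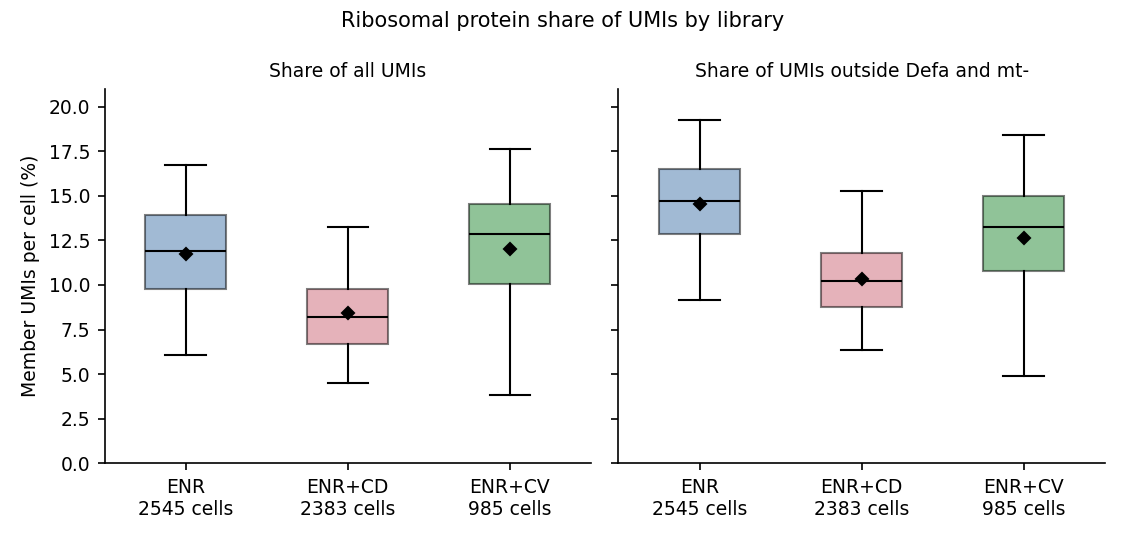
Percent of UMIs per cell on the 88 members in the 3 libraries, of all UMIs (left) and of the UMIs outside Defa and mt- genes (right). Boxes span the quartiles with the median as a line, whiskers run from the 5th to the 95th percentile of cells and diamonds are means; the ENR+CD box is the lowest in both panels, with medians of 8.21% and 10.2%, and the lower whisker of ENR+CV reaches 3.81% and 4.91%.

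The spread between cells was wider than counting alone would give. With each cell thinned to 1000 UMIs, the member total averaged 117 UMIs in ENR with an SD of 32.6, 84.0 with an SD of 25.9 in ENR+CD and 120 with an SD of 40.9 in ENR+CV, where binomial counting at 1 common share would give SDs of 10.2, 8.77 and 10.3. A thinned cell held UMIs of 44.3 ± 6.56 members in ENR, 38.4 ± 6.35 under ENR+CD and 42.2 ± 8.79 under ENR+CV, and without thinning 53.3, 47.3 and 54.5. Single members were counted at low levels, where counting noise weighs more, so their spread cannot be set directly against that of the total. Among members with a mean of at least 0.5 thinned UMIs, the ratio of variance to mean had a median of 1.21, 1.23 and 1.29 in the 3 libraries. The highest ratios were those of Rps14, Rpl32 and Rplp1 in ENR (1.67, 1.61 and 1.51) and in ENR+CD (1.57, 1.504 and 1.59), but of Rpl41, Rps19 and Rps18 in ENR+CV (2.17, 2.16 and 1.95). This ratio rises with level at equal relative spread. By UMIs these members ranked 1st, 3rd and 2nd in ENR and in ENR+CD, and 1st, 3rd and 5th in ENR+CV.

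The members differed widely in level. Because each UMI stands for the 3′ end of a molecule, levels are in CPM and were not divided by transcript length. The 10 highest members of a library held 40.3%, 38.8% and 40.1% of its member UMIs, and the median member stood at 763, 544 and 886 CPM in ENR, ENR+CD and ENR+CV. Rps14, a small-subunit protein, had most UMIs over the 3 libraries. Its level was 6397 CPM in ENR, 4396 under ENR+CD and 6938 under ENR+CV. Next came Rpl32 of the large subunit, at 5740.4, 3646 and 6209. The stalk proteins, which recruit elongation factors to the ribosome, were also among the 10 with most UMIs. Rplp1 stood at 6119, 4289.6 and 3325 and Rplp0 at 4163, 2885 and 3768. In both genes ENR+CV lay below ENR, while in Rps14 and Rpl32 the ratio by UMIs was 1.08 in each. These ratios moved with the measure. Reads gave 0.974 for Rplp1, 2.44 for Rps14 and 2.03 for Rpl32, and TMM factors gave 0.414, 0.827 and 0.824, so Rps14 and Rpl32 lay above ENR by UMIs and reads and below it with TMM factors.

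The 10 with most UMIs also held Rpl13a, Rps19, Rps24, Rps9 and Rps3. Rpl13a, a large-subunit protein, stood at 4053, 2777 and 4118 CPM. Rps19, whose loss in patients causes Diamond-Blackfan anaemia, stood at 2937, 2278 and 6743, 2.30 times as high in ENR+CV as in ENR by UMIs, 4.08 by reads and 1.75 with TMM factors. Rps24 measured 3859, 2969.8 and 3564. Rps9 measured 3969, 2884 and 3372. Rps3, at the mRNA entry of the small subunit, measured 3721, 2486 and 2883. Of the genes named here all were lowest in ENR+CD except Rplp1, which was lowest in ENR+CV.

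**Figure D2:**
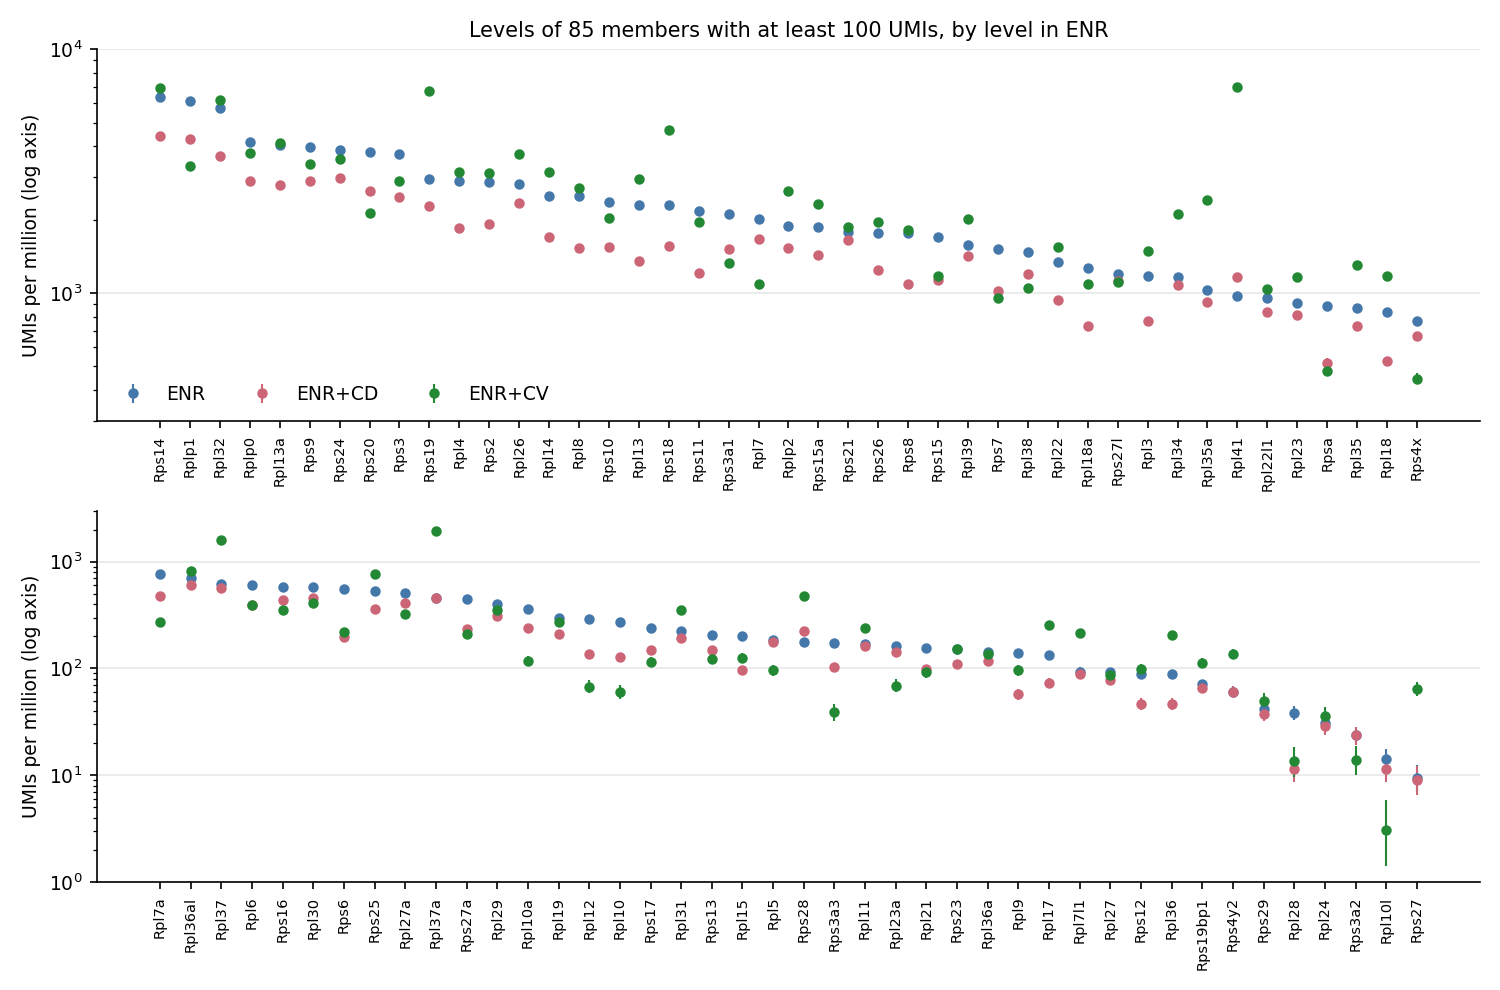
Levels of 85 of the 86 members with at least 100 UMIs, in CPM on log axes of different range in the 2 panels, ordered by their level in ENR. Points are the 3 libraries and bars the exact 95% Poisson intervals; the ENR+CD points lie just under the ENR points for most members, whereas ENR+CV points scatter to both sides, with Rpl41 at 7019.8 against 971 in ENR.

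In ENR+CD most of the measured members were lower than in ENR. To be called higher or lower, a gene needed 20 UMIs or more over both libraries, Poisson intervals that did not meet and a log2 ratio of at least 0.32 in size. The first of these left out Rpl39l and Rpl3l, so that 86 members were compared. By this rule 53 members were lower and 1 was higher, where 21.6% of all 12197 genes were lower and 19.9% higher. At 2-fold, 6 members were lower and 0 higher, against 9.35% and 10.8% of all genes. Genes with few UMIs seldom reach separate intervals at small ratios. The shares of all genes called, here and below, are therefore not matched to the level of the members. The median log2 ratio of the members was -0.48, while that of all genes was -0.01, and 82 of 86 lay below 0. The quartiles of the members were -0.65 and -0.21, a narrower range than the -0.50 to 0.27 of the 3372 other genes with a mean of at least 50 CPM. Both subunits took part, with medians of -0.49 for 43 large-subunit, -0.54 for 31 small-subunit and -0.51 for the 3 stalk members.

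The members that stood lowest in ENR+CD relative to ENR were Rpl28, Rps6, Rpl9, Rpl12 and Rpl10. Rpl28 of the large subunit had 38.3 CPM in ENR and 11.5 in ENR+CD, a ratio of 0.299 (95% interval 0.216 to 0.408). Rps6, the target of S6 kinase, had 556 and 197, a ratio of 0.355 (0.329 to 0.383). Rpl9 had 138 and 57.1 and a ratio of 0.412, which read counts gave as 0.736. Rpl12, of the base of the stalk, had 293 and 136, a ratio of 0.465. Rpl10, which joins the large subunit late in its assembly, had 272 and 127, a ratio of 0.467. At the other end Rps28 was the 1 member called higher, with 177 and 227 CPM and a ratio of 1.28 (1.17 to 1.40), a call that was lost in cells of at least 2000 UMIs. Read counts gave Rps28 a ratio of 1.06. Rpl41, the smallest ribosomal protein, followed at 971 and 1166 and a ratio of 1.20, whose log2 value is under 0.32. Rps4y2, Rpl37a and Rps3a2 had ratios of 1.01, 1.002 and 0.993. Rps4y2 is not in the annotation used, and Rps3a2 and Rps3a3 are annotated as processed pseudogenes, so their counts are uncertain.

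The ENR+CV library differed from ENR not in one direction but in the make-up of the set. By the same rule 25 members were higher and 32 lower in ENR+CV than in ENR, where 35.3% of all 11962 genes were higher and 9.25% lower. At 2-fold, 11 members were higher and 11 lower, against 15.9% and 5.80% of all genes. The median log2 ratio was -0.03 for the members and 0.35 for all genes, so relative to the middle of all genes the members lay 0.38 lower. TMM factors, which centre the genes (all-gene median -0.04), gave 13 members higher and 47 lower. Scaling to UMIs outside Defa and mt- (all-gene median 0.10) gave 16 and 42. The shares of all genes above hold without these scalings, which move all genes alike, and shares under them are not given. The members' quartiles, -0.68 and 0.36, lay farther apart than the 0.00 and 0.68 of the 3375 other genes with a mean of at least 50 CPM.

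The largest rises in ENR+CV were those of Rpl41, Rps27, Rpl37a, Rps28 and Rpl37, all with under 300 coding bases. Rpl41 had 971 CPM in ENR, 1166 under ENR+CD and 7019.8 under ENR+CV, 7.23 times its ENR level (7.01 to 7.46). This ratio moved beyond its interval to 5.51 with TMM factors and 6.09 with scaling outside Defa and mt-. It was 7.88 in cells of at least 2000 UMIs and 11 by reads. Among the members Rpl41 ranked 38th, 29th and 1st in ENR, ENR+CD and ENR+CV, and it held 0.834%, 1.40% and 5.55% of member UMIs. Rps27, a zinc-finger protein of the small subunit, had 9.42, 9.03 and 64.2, a ratio of 6.82 (4.94 to 9.57) on 48 and 189 UMIs. Rpl37a had 459.9, 461 and 1919, a ratio of 4.17 (3.98 to 4.38). Rps28, at the mRNA exit of the small subunit, had 177, 227 and 480.2, a ratio of 2.72. Rpl37 had 624, 562 and 1599, a ratio of 2.56. In each of these genes ENR+CV was the highest of the 3 libraries.

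Among members with at least 100 UMIs in the pair, the largest falls were those of Rpl10, Rps3a3, Rpl12, Rpl10a and Rpl28. Rpl10 had 272 CPM in ENR and 60.8 in ENR+CV, a ratio of 0.224 (0.190 to 0.262). Read counts gave Rpl10 a ratio of 0.635. Its reads per UMI were 1.71 in ENR and 3.24 in ENR+CV, while those of all genes together were 15.3 and 10.2. Rpl12 had 293 and 67.6, a ratio of 0.231 (0.198 to 0.268). Rpl10a, of the mobile stalk on the tRNA exit side of the large subunit, had 357 and 118, a ratio of 0.330 (0.293 to 0.370). Rpl28 had 38.3 and 13.6, a ratio of 0.355 by UMIs and 0.790 by reads. Rps3a3 had 172 and 38.7, a ratio of 0.226. Over the 39 named members compared, reads in place of UMIs moved 14 ratios of ENR+CV over ENR and 2 of ENR+CD over ENR by more than 1.5 times, all upwards.

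Set against ENR+CD, 46 members were higher and 14 lower in ENR+CV, where 37.2% of all 12099 genes were higher and 10.9% lower. At 2-fold 16 were higher and 6 lower, against 18.9% and 7.10% of all genes. The median log2 ratio was 0.40 for the members and 0.36 for all genes, so the members as a set lay close to the middle of all genes. With TMM factors the counts were 31 and 26, and with scaling outside Defa and mt- 37 and 24. The all-gene medians were then -0.02 and 0.12, and shares of all genes called under these scalings are not given. Rps27 (ratio 7.11), Rpl41 (6.02), Rpl36 (4.38), Rpl37a (4.16) and Rpl17 (3.54) had the largest ratios. Rpl36 measured 88.5 CPM in ENR, 46.5 under ENR+CD and 204 under ENR+CV, and Rpl17 132, 72.7 and 257, so both were lowest in ENR+CD. Rps3a3 (0.377), Rpl23a (0.479), Rpl10 (0.479), Rpl10a (0.492) and Rpl12 (0.497) had the smallest among members with at least 100 UMIs in the pair, which leaves out Rpl10l. Rpl23a, beside the exit tunnel of the large subunit, measured 161 in ENR, 144 under ENR+CD and 69.0 under ENR+CV. By reads Rpl10 and Rplp1 turned to 1.56 and 1.48, from 0.479 and 0.775 by UMIs. The 3 comparisons share libraries and are not independent.

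The same was seen in the percent of member UMIs that would have to move to other members to make one library's profile into the other's. This was 5.55% between ENR+CD and ENR, 16.8% between ENR+CV and ENR and 16.1% between ENR+CV and ENR+CD. Within a library, cells under 1500 and cells of 3000 or more UMIs differed by 2.18% to 2.95%. Cells with under 5% and with 10% or more mt- UMIs differed by 3.15% in ENR, 2.87% under ENR+CD and 7.48% under ENR+CV. At matched mt- share, ENR+CV and ENR differed by 17.9% to 20.8% in the 4 bands, and ENR+CD and ENR by 5.81% to 6.81%.

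The balance of the subunits moved with it. Core large-subunit UMIs per small-subunit UMI were 0.782 (0.778 to 0.787) in ENR, 0.817 (0.811 to 0.823) in ENR+CD and 1.01 (1.004 to 1.02) in ENR+CV. Without Rpl41 the values were 0.765, 0.787 and 0.887. Part of the difference between ENR+CV and ENR thus came from this 1 gene. The stalk took 1.23% ± 0.448 of UMIs in ENR, 0.880% ± 0.377 under ENR+CD and 0.921% ± 0.364 under ENR+CV (SD over cells).

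The ratios of the members varied with the length of their coding sequence. In ENR+CV over ENR, the 9 core members with under 300 coding bases had a median ratio of 2.56, with 8 of 9 above 1. The 46 with 300 to under 600 bases had a median of 0.946 and the 22 with 600 bases and over a median of 0.707. Other genes with a mean of at least 50 CPM had medians of 1.22, 1.21 and 1.28 in the same classes. In ENR+CD over ENR the medians of the members were 0.932, 0.711 and 0.657, and those of the other genes 0.994, 0.928 and 0.945. Over the 77 core members Spearman's rho of ratio and coding length was -0.46 in ENR+CV over ENR and -0.49 in ENR+CD over ENR, against 0.02 and 0.01 over 3140 other genes. These are descriptions across genes of 1 library pair, which are not independent replicates, and part of the members share sequence.

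**Figure D3:**
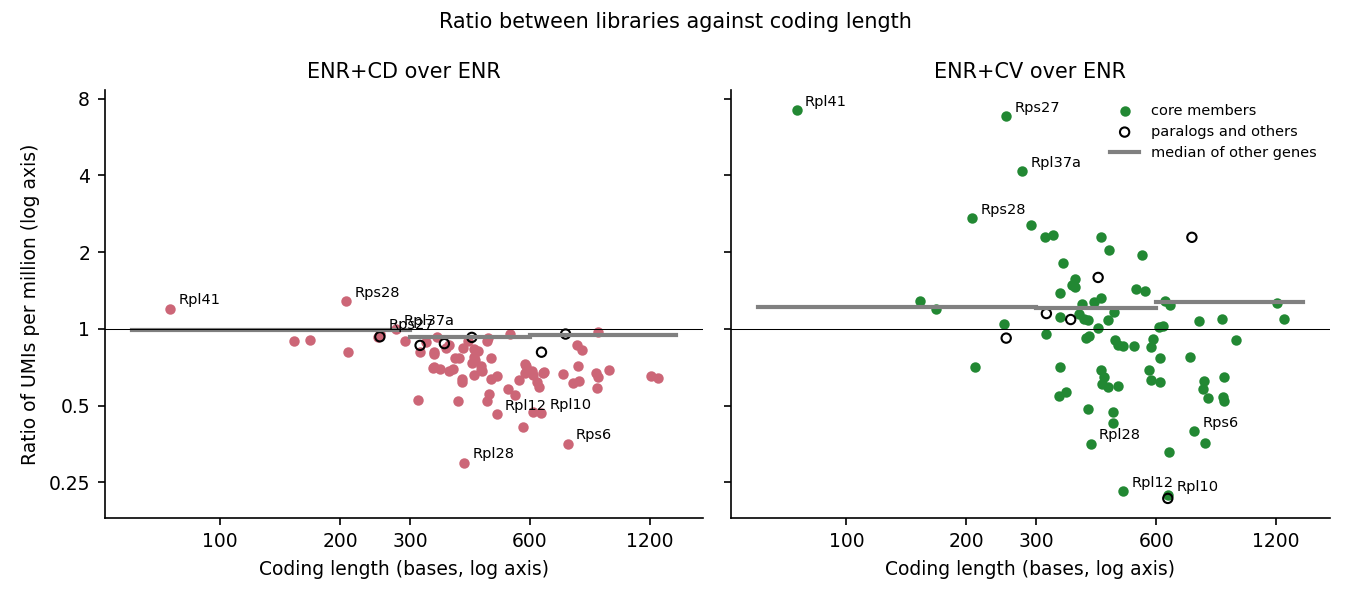
Ratio of CPM between libraries (log axis) against coding length in bases (log axis), for ENR+CD over ENR (left) and ENR+CV over ENR (right). Filled points are core members, open circles paralogs and other members, and grey lines the median of other genes with a mean of at least 50 CPM in 3 length classes; short members reach 7.23 (Rpl41) on the right, while Rpl10 and Rpl12 lie at 0.224 and 0.231.

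Many ribosomal protein genes have processed copies across the genome, and how reads that fit several genes were counted is not given in the sources used here. For 29 core members every window of 50 coding bases occurred in a transcript of another gene. The windows cover coding bases only, whereas UMIs stand for 3′ ends, and the untranslated 3′ ends were not compared. Their median level, averaged over the 3 libraries, was 154 CPM, and 26 of 29 were under 500. In the 38 members with 50% to under 100% of windows shared the median was 1503, with 5 under 500, and in the 10 with under 50% it was 2433, with 0 under 500. Rpl28 was the lowest (21.1) and Rpl41 the highest (3052) of those with all windows shared. The 25 symbols marked -ps, left out of the set, took 0.379% of UMIs in ENR, 0.160% under ENR+CD and 0.170% under ENR+CV. Of these 25, 13 were lower at 2-fold in ENR+CD and 17 in ENR+CV than in ENR, with 1 and 0 higher, beside 9.35% and 5.80% lower and 10.8% and 15.9% higher among all genes. Rps10-ps1 had 604, 258 and 316 CPM. The part of shared reads in the ratios of the members was not tested.

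The members that are paralogs were set beside their core partners, and the balance of some pairs differed between libraries. Rpl22l1, the paralog that can stand in for Rpl22, had 953, 835 and 1038 CPM in ENR, ENR+CD and ENR+CV, and Rpl22 had 1341, 937 and 1541. Rpl22l1 thus had 0.711 UMIs per Rpl22 UMI (0.685 to 0.738) in ENR, 0.891 (0.853 to 0.931) in ENR+CD and 0.674 (0.643 to 0.705) in ENR+CV. By reads, the ratio of ENR+CV over ENR was 2.12 for Rpl22l1 and 1.79 for Rpl22, from 1.09 and 1.15 by UMIs. Rps27l, a paralog of Rps27 known as a p53 target, stood at 1202, 1120.2 and 1107, and outnumbered Rps27 in each library, by 128, 124 and 17.2 UMIs to 1. Every 50-base coding window of Rps27 is shared with other genes, and its untranslated 3′ end was not compared, so its level is uncertain. Rpl36al had 707, 609.9 and 813 CPM and Rpl36a 143, 116 and 136. Rpl7l1, a nucleolar relative of Rpl7, had 93.4, 89.2 and 214, whereas Rpl7 itself had 2022, 1669 and 1087, so that their ratio was 0.0462, 0.0535 and 0.197.

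The other paralogs were rare. Rpl10l, known from testis, had 14.1, 11.5 and 3.06 CPM, 0.0520, 0.0903 and 0.0503 per Rpl10 UMI. Rps3a1, the gene of the small-subunit protein eS1, had 2120.1, 1517 and 1323 CPM, and its copies Rps3a2 23.7, 23.6 and 13.9. Rpl39 had 1572, 1416 and 2016 and Rpl3 1173, 767 and 1483, while their paralogs Rpl39l and Rpl3l, known from testis and muscle, had fewer than 100 UMIs in all. As a group the 11 members that are not core took 0.329% ± 0.177 of UMIs in ENR, 0.293% ± 0.173 under ENR+CD and 0.327% ± 0.172 under ENR+CV (SD over cells).

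The run of pyrimidines at the annotated start did not divide the members. Since that start can lie some bases from the one used, this does not sort the members by their TOP motif. In ENR+CD over ENR the 20 members that start in a run had a median ratio of 0.791 (0.299 to 0.959) and the 43 measured members that do not had one of 0.717 (0.412 to 1.28). In ENR+CV over ENR the medians were 1.14 and 1.02, with ranges of 0.355 to 6.82 and 0.216 to 7.23 that largely overlap. Thus Rps27 and Rpl28, whose starts are both marked in capitals above, lay at opposite ends.

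In ENR and ENR+CD the share of the members also varied with the Defa share of the cell. Outside Defa and mt- genes, it was 14.8% ± 3.41 in the 1305 ENR cells with under 1% Defa UMIs and 9.98% ± 2.90 in the 64 cells with 20% and over. In ENR+CD it was 11.6% ± 3.85 in 290 and 8.45% ± 2.36 in 286 such cells. Between these, in the bands of 1% to 5% and 5% to 20%, ENR stood at 14.8% and 14.1% and ENR+CD at 11.1% and 10.3%. ENR+CD thus lay below ENR in each of the 4 bands, with ratios of 0.784, 0.748, 0.731 and 0.847. The bands do not match Defa share exactly. Its means were 0.268%, 2.46%, 9.55% and 27.4% in ENR and 0.381%, 2.87%, 11.8% and 25.9% in ENR+CD. ENR+CD also lay below ENR in 4 bands of mt- share (0.675 to 0.774) and in 3 of UMIs per cell (0.693 to 0.725). A band is a range cut from a score and not a cell type. Predicted α-defensin genes with other symbols stayed in the denominator of these shares. Their part in the fall with Defa share was not tested.

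ENR+CV did not keep its place in the bands. Its share fell from 13.6% ± 3.001 in the 711 cells with under 5% mt- UMIs to 12.1% in 121 cells, 9.62% in 95 cells and 7.42% ± 5.002 in the 58 cells with 20% and over. In ENR the 4 values were 13.4%, 15.2%, 14.95% and 13.5%, and in ENR+CD 10.4%, 10.5%, 10.1% and 9.54%. ENR+CV over ENR was accordingly 1.01 in the lowest band and 0.549 in the highest. It was 0.777 in cells with under 1500 UMIs and 0.992 in cells of 3000 and over, and the ENR+CV cells of high mt- share were also shallow, with medians of 1351 to 1589 UMIs against 3190 in the lowest band. The parts of depth and mt- share were not tested apart.

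**Figure D4:**
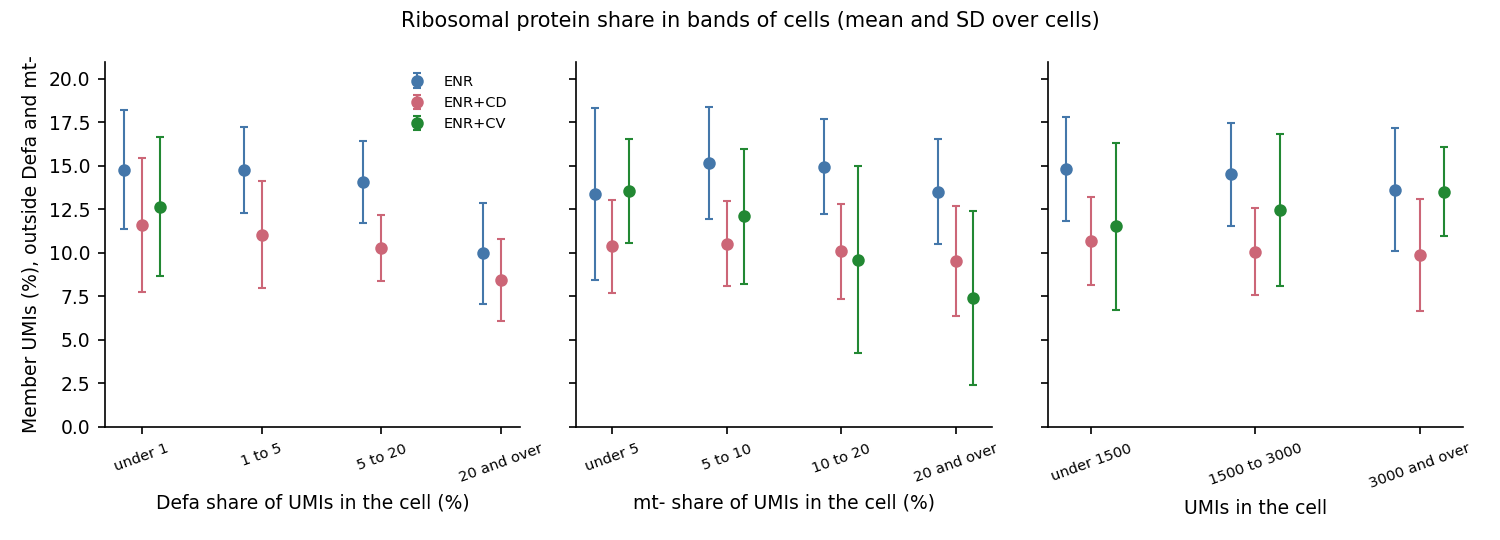
Percent of UMIs on the members, outside Defa and mt- genes, in bands of Defa share, mt- share and UMIs of the cell. Predicted α-defensin genes with other symbols stay in the denominator. Points are means and bars SDs over the cells of a band, and bands of fewer than 20 cells are not drawn; ENR+CD lies under ENR in every band, and ENR+CV falls from 13.6% to 7.42% with rising mt- share.

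Cells with most UMIs on cell type markers were compared with the other cells of their library, as the share outside Defa, mt- and the marker genes themselves. The 254 ENR cells highest in PC markers gave 13.6% ± 2.89 to the members and the other 2291 cells 14.9% ± 3.04. In ENR+CD the values were 9.90% ± 2.60 in 238 cells and 11.1% ± 2.56 in 2145. For enteroendocrine markers they were 13.3% against 14.8% in ENR and 9.55% against 10.5% in ENR+CD. In each of these pairs the means differ by less than 1 SD over cells. The predicted α-defensin genes stayed in the denominator here too. Proliferation markers, led by Mki67, Top2a and Pcna, went the other way in ENR+CD, with 11.7% ± 2.90 in the highest cells and 10.2% ± 2.55 in the others, a ratio of 1.14. In ENR this ratio was 1.03 and in ENR+CV 0.910. Stem cell markers gave 1.05, 1.06 and 0.954, goblet markers 0.947, 0.985 and 1.01 and enterocyte markers 0.933, 1.04 and 0.870 in ENR, ENR+CD and ENR+CV. In ENR+CV the marker-high cells for PCs and enteroendocrine cells held only 5.14% and 0.262% of UMIs on those markers, and their ratios were 1.03 and 0.972.

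Other genes of the translation machinery were given from lists as a frame for the members. The 77 mitochondrial ribosomal proteins, which serve the separate ribosome of mitochondria, had 54 members called lower and 0 higher in ENR+CD than in ENR, with a median ratio of 0.697, close to the 0.715 of the cytosolic set. Of 50 genes of ribosome biogenesis 30 were lower and 1 higher (median ratio 0.672), and nucleolin (Ncl) had 1535, 994 and 1623 CPM. Nop10 had 548, 392 and 553, and Nop58 365, 293 and 334. Of 19 elongation factors and other genes with TOP mRNAs 13 were lower and 1 higher (0.708), and of 30 initiation factors 10 were lower and 2 higher (0.848). These counts stand against the 21.6% lower and 19.9% higher of all genes.

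In ENR+CV against ENR the lists were spread to both sides of the members. Of the mitochondrial ribosomal proteins 24 were higher and 7 lower, of ribosome biogenesis genes 19 and 2, of initiation factors 17 and 1, and of the elongation and TOP list 9 and 5, beside the 35.3% and 9.25% of all genes. Median ratios were 1.10, 1.13, 1.34 and 1.17, where all genes had 1.28 and the members 0.979. The snoRNA host genes (0.911), the ribosomal proteins without the prefix (0.688) and the -ps symbols (0.374) lay below the members. Mrpl52 had 339, 279 and 580.2 CPM in ENR, ENR+CD and ENR+CV, Mrpl33 274, 279 and 441, and Mrpl12 289.9, 135 and 422. Single genes differed within a list. Pabpc1, the poly(A)-binding protein, had 1299.9, 976 and 4536, 3.49 times its ENR level in ENR+CV. Eef1a1, which brings aminoacyl-tRNA to the ribosome, had 3855, 3096 and 2357, and its exchange factor subunit Eef1b2 had 2239.6, 1416 and 1215. Eif5a had 458, 378 and 759.96, Eif5 438, 478 and 472, and Eif4a1, the helicase of the cap-binding complex, 394, 367 and 539.7.

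In ENR+CV against ENR+CD, 63 mitochondrial ribosomal proteins were higher and 0 lower, and 37 and 2 genes of ribosome biogenesis, against 37.2% and 10.9% of all genes. The elongation and TOP list had 14 higher and 2 lower, and initiation factors 22 and 1. Ribosomal proteins that lack the prefix were also looked at. Gnb2l1, which encodes the scaffold RACK1 on the small subunit, had 2632, 1628 and 1812 CPM. Fau, a fusion of a ubiquitin-like and a small-subunit protein, had 193, 129.6 and 249. Of the snoRNA host genes, whose spliced RNAs share the TOP start, 4 of 10 measured were lower and 1 higher in ENR+CD than in ENR. Of all genes, 21.6% were lower and 19.9% higher in that comparison. Gas5, the most abundant of them, had 1249, 1033 and 1196 CPM, Snhg1 368, 276 and 198, and Snhg6 150.1, 164 and 193. Rpl9-ps6 and Rpl13a-ps1, the symbols marked -ps with most UMIs after Rps10-ps1, had 347, 191 and 297 and 371, 157 and 148.

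**Figure D5:**
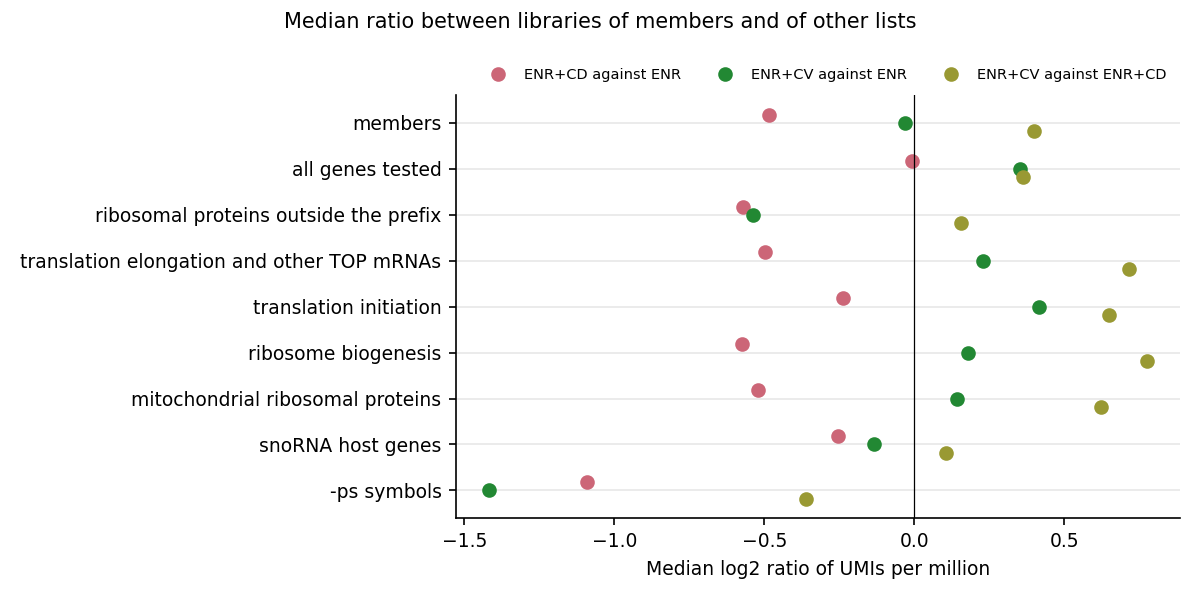
Median log2 ratio of CPM between libraries for the 88 members (86 measured), for all genes tested and for 7 other lists, in the 3 comparisons. The members (-0.48), the mitochondrial ribosomal proteins (-0.52) and ribosome biogenesis (-0.57) lie together in ENR+CD against ENR, and the members lie left of all genes (-0.03 and 0.35) in ENR+CV against ENR.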

How the data were processed

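The deposited merged table holds raw UMI counts per gene and cell with at least 1000 UMIs. The authors aligned reads to mm10, binned them by cell barcode and collapsed them by UMI; the submitters' processing notes name bcl2fastq, STAR and Seurat, with versions and annotation not given in the sources used here. Read counts of the same cells, also deposited by the authors, served as an alternative. Levels are UMIs summed over kept cells scaled to CPM (5095089 UMIs in ENR, 4538388 in ENR+CD, 2942252 in ENR+CV), with exact 95% Poisson intervals and exact binomial intervals for ratios. These cover counting error only. A library under 3 UMIs was set to 3 in medians. No test between conditions was made. Coding lengths, coordinates and 50-base windows came from GENCODE vM21 (GRCm38), and start sites from RefSeq. Thinning used seed 11. No error rate is given for the rule for calls. Software was Python 3.11.15, NumPy 2.4.6, SciPy 1.17.1, pandas 2.3.3, matplotlib 3.10.9, R 4.3.3 and edgeR 4.0.16 (TMM factors only). The members, lists and alternatives were chosen with earlier results of these data known. Members named were the 10 with most UMIs, the 5 largest and 5 smallest ratios of each pair (at least 100 UMIs), the 3 with the highest variance over mean per library, and paralog pairs; of other lists, the 3 genes with most UMIs. A few of these are not reported here. Rps4y2 was set apart from the core after the table was seen.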

Additional observations from a re-analysis of the deposited data

Results flagged for a closer look

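The barcodes that the merged table leaves out, for having too few UMIs, were used in no comparison. The ENR, ENR+CD and ENR+CV libraries hold 3349, 5494 and 3908 of them, with medians of 644, 508 and 205 UMIs. Of their UMIs, 11.8% lay on members in ENR barcodes, 8.63% in those of ENR+CD and 9.57% in those of ENR+CV. In ENR and ENR+CD these shares lie close to the summed shares of the kept cells (11.6% and 8.34%), whereas in ENR+CV the share lies under the 12.6% of the kept cells. Their mt- shares were 18.5%, 10.9% and 16.3%, against 16.5%, 8.67% and 3.89% in kept cells. No library without cells was analysed here, and the part of free RNA was not tested.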

How the results depend on the processing

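No paired analysis was possible because each condition has 1 library. For the member share of all UMIs, ENR+CD over ENR was 0.714 and stayed under 1 in every alternative. It was 0.701 in cells of at least 2000 UMIs, 0.657 in cells under 10% mt-, 0.688 for medians over cells, 0.709 for core members, 0.706 with -ps symbols and ribosomal proteins without the prefix added, and 0.718 without structural non-coding RNA. ENR+CV over ENR+CD was 1.45, 1.60, 1.49, 1.52, 1.56, 1.44, 1.41 and 1.63 with all merged cells, cells of at least 2000 UMIs, cells under 10% mt-, summed UMIs, medians, core members, the added symbols and reads. ENR+CV over ENR turned to 0.981 in cells under 10% mt- and to 0.992 with the added symbols, and was 1.03 with all merged cells or without structural non-coding RNA, 1.12 in cells of at least 2000 UMIs, 1.09 with summed UMIs, 1.08 with medians and 1.16 with reads. The cause of these turns was not tested.

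Outside Defa and mt- genes, ENR+CD over ENR was 0.702 (at least 2000 UMIs), 0.700 (under 10% mt-), 0.715 (summed, or without structural non-coding RNA), 0.696 (medians), 0.706 (core), 0.703 (added symbols), 0.637 (reads) and 0.750 without PC and enteroendocrine markers. In the same order with all merged cells first, ENR+CV over ENR was 0.875, 0.949, 0.892, 0.914 (summed), 0.876 (without structural non-coding RNA), 0.902 (medians), 0.842 (added symbols), 0.945 (reads) and 0.856, and ENR+CV over ENR+CD was 1.23, 1.35, 1.27, 1.28 (summed), 1.29 (medians), 1.23 (core), 1.20 (added symbols), 1.48 (reads) and 1.14. Leaving out predicted α-defensin genes as well, chosen after seeing the data, gave 0.748, 0.859 and 1.15.

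At 2-fold the members higher and lower were 0 and 6 (ENR+CD against ENR), 11 and 11 (ENR+CV against ENR) and 16 and 6 (ENR+CV against ENR+CD). In cells of at least 2000 UMIs 0 members were higher in ENR+CD than in ENR. TMM factors and scaling outside Defa and mt- gave 13 and 16 members higher in ENR+CV than in ENR, and 26 and 24 lower in ENR+CV than in ENR+CD. Shares of all genes called under these 2 scalings are not given. Of 468 ratios of named members under 4 alternatives, 209 stayed within their counting interval and 254 moved beyond it. The other 5 changed direction, all of them in members called higher or lower in that pair. Among the 254 are further ratios that crossed 1 in members not called. Rps14 and Rpl32 in ENR+CV over ENR with TMM factors (0.827 and 0.824) are examples. With TMM factors Rpl3 and Rpl39 had ratios of 0.964 and 0.978 in ENR+CV over ENR. With reads Rpl9 had 1.13 in ENR+CV over ENR, and Rpl10 and Rplp1 had 1.56 and 1.48 in ENR+CV over ENR+CD. Depth limits the statements on Rps27, Rpl28 and Rpl10l, which have 278, 287 and 133 UMIs in all.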
